A study of Mus musculus with 8 samples.

Results

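The 10 genes described here encode enzymes that make or inactivate eicosanoids, and the protein that activates 5-lipoxygenase. They are Alox12, Alox15, Alox5, Alox5ap, Ptgs1, Ptgs2, Ptgis, Ptgds, Ptges and Ephx2, among 55487 genes in the deposited count table. They were listed by name as a family, with earlier results of these data known. All 8 libraries were made from hearts of db/db mice, a strain with a defective leptin receptor that becomes obese and diabetic. In 4 libraries the mice had been given vehicle and in 4 DIZE, a name commonly used for the drug diminazene aceturate, which the title of the series presents as an activator of angiotensin-converting enzyme II. Every library therefore comes from diabetic mice, and there is no lean group. Dose, route, duration, age and sex are not in the labels used here, nor is whether each library is a separate animal, so the spread between libraries may be in part technical.

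Eicosanoids are short-lived lipid signals made from arachidonic acid, which phospholipases release from membranes. Cyclooxygenases turn it into prostaglandin H, which separate synthases convert into prostacyclin, prostaglandin D, prostaglandin E or thromboxane. Lipoxygenases turn it into leukotrienes and hydroxy acids, and cytochrome P450 enzymes turn it into epoxides, which soluble epoxide hydrolase breaks down. In the heart these products are known for acting on vascular tone, platelets, inflammation and cardiomyocyte survival.

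Total counts ranged from 7447664 to 10161623 per library, and levels are given as CPM, reads scaled to a common library size by the trimmed mean of M-values. A level of 1 CPM stood for 7.46 to 10.3 reads. Heart muscle markers were abundant in every library, with Myh6, the gene of the alpha myosin heavy chain of atria and ventricles, between 8858 and 20810 CPM. Vehicle 1 stood apart, with the lowest summed level of 10 cardiomyocyte markers (37136 CPM, against 50507 to 63415 CPM in the other 7 libraries). It also had the highest sum of 6 atrial markers (963 CPM, against 22.1 to 397 CPM). The atrial sum was 46.3 to 963 CPM in vehicle and 22.1 to 156 CPM in DIZE. All 5 tested atrial markers lay lower in DIZE, with a median log2 fold change of -2.75, beside -0.01 over all tested genes. By edgeR 2 of them had an unadjusted p under 0.05, beside 10.3% of all tested genes lower at that mark, and none passed after adjustment. The part of atrial tissue in the other values was not tested. Vehicle 2 held 1216 reads from 22 P450 genes of the Cyp2c and Cyp4a families and Cyp2j5, of the kind abundant in liver, where the other libraries held 6 to 14. Sample titles came in 2 forms, with the letters db (replicates 1 and 2 of each group) or without (replicates 3 and 4), and the labels do not say what the form stands for.

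Per length, Ptgds and Ephx2 stood far above the other 8 genes. Levels between genes were compared as reads per kilobase of exon scaled to the same sum in every library (TPM), over all 8 libraries. Ptgds, the lipocalin-type prostaglandin D synthase gene, averaged 827 ± 191 TPM (SD, n = 8), and Ephx2, the soluble epoxide hydrolase gene, averaged 673 ± 120.1 TPM. Next came Ptgis at 23.2 ± 5.26 TPM, Ptgs1 at 9.67 ± 1.85 TPM and Alox5 at 6.31 ± 0.72 TPM. Alox5ap had 4.53 ± 1.67 TPM, Alox12 3.70 ± 1.77 TPM, Ptges 1.88 ± 0.54 TPM, Ptgs2 1.27 ± 0.47 TPM and Alox15 0.37 ± 0.22 TPM.

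The order held in all 8 libraries at 3 steps: Ephx2 was 29.0 times above Ptgis, Ptgis 2.40 times above Ptgs1, and Ptgs1 1.53 times above Alox5. Elsewhere neighbours crossed over. Ptgds exceeded Ephx2 in 6 libraries, and the exceptions were DIZE 3 and DIZE 4. Alox5ap exceeded Alox12 in only 5 libraries, vehicle 1 to 4 and DIZE 1, and lay below it in DIZE 2 to 4. In vehicle 2 the 2 genes were nearly level, at 2.42 TPM for Alox5ap and 2.35 TPM for Alox12. Over all 8 libraries those 2 genes therefore have no single order.

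**Figure D1:**
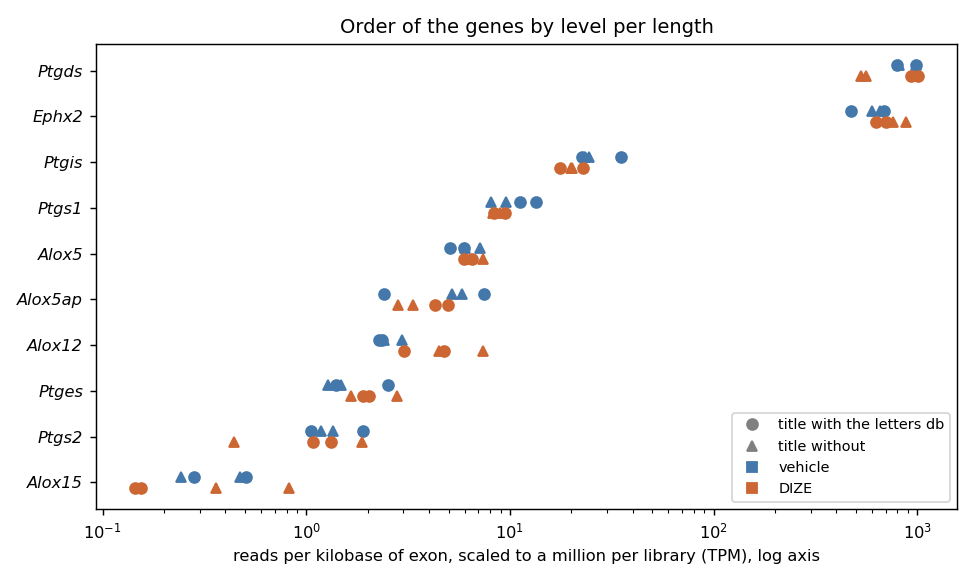
Each point is 1 library's level of a gene in reads per kilobase of exon scaled to the same sum in every library (TPM, log axis), coloured by group and shaped by the form of the sample title. Ptgds and Ephx2 lie between 472 and 1012 TPM, while no other gene exceeds 35.0 TPM.

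None of the 10 genes passed the adjusted threshold of 0.05 for DIZE against vehicle by edgeR's quasi-likelihood test, where 0.0366% of the 13648 tested genes did. Alox15 had too few reads to be tested, which left 9. At an unadjusted p under 0.05 there were 2 of the 9, Alox12 toward higher and Ptgis toward lower values in DIZE, while 19.4% of all tested genes met that mark (9.11% higher, 10.3% lower). DESeq2 called 1 of the 9, Alox12, beside 4.45% of the genes it tested. Of the 9, 4 lay higher and 5 lower in DIZE with a median log2 fold change of -0.24, beside a median of -0.01 and 48.2% higher over all tested genes. In DIZE, 7.17% of all tested genes lay wholly above the vehicle range and 5.26% wholly below it. Of the 9, Alox12 lay wholly above and Ptgis wholly below, that is 2 of 9 where 12.4% of all tested genes lay apart in either direction, and nothing is read from so few.

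**Figure D2:**
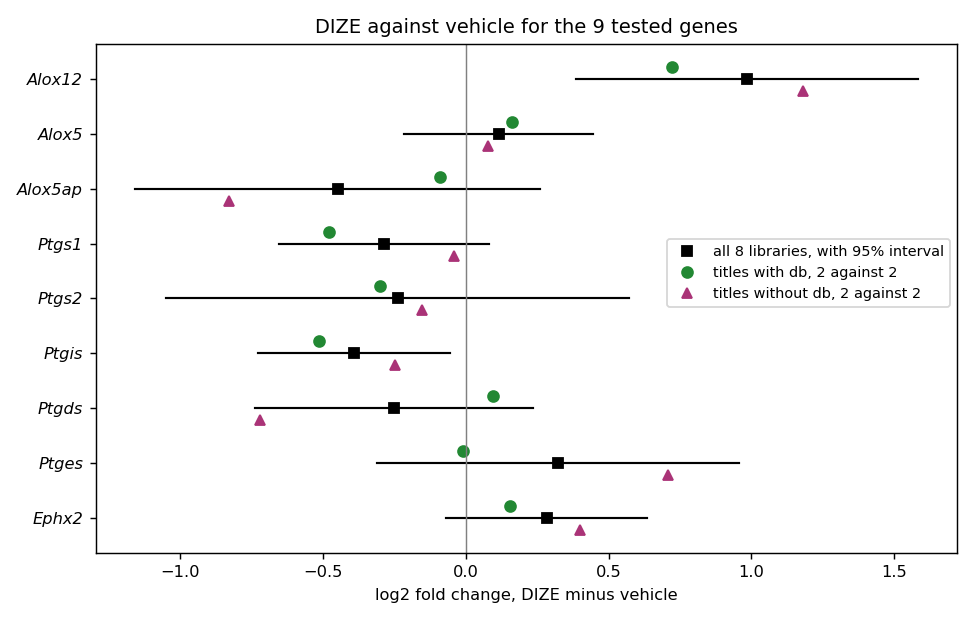
Squares are log2 fold changes of DIZE minus vehicle over all 8 libraries with 95% intervals, circles and triangles the same contrast within each title form (2 libraries against 2). Only the intervals of Alox12 and Ptgis leave out 0, and Ptgds and Ptges have opposite signs in the 2 title forms.

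Among the lipoxygenases, Alox12 showed the largest difference of the 9 tested genes. Alox12 (ENSMUSG00000000320) encodes the platelet-type 12-lipoxygenase, which makes 12-hydroperoxy acids from arachidonic acid. It lies on chromosome 11 from 70241457 to 70255353 of GRCm38 (mm10), on the minus strand. Its level was 3.08, 3.59, 4.16 and 3.24 CPM in vehicle 1 to 4, and 4.27, 6.71, 10.6 and 6.05 CPM in DIZE 1 to 4. All 4 DIZE libraries lay above all 4 vehicle libraries, DIZE 3 was the highest, and DIZE 1 was barely above vehicle 3. The means were 3.52 ± 0.48 CPM in vehicle and 6.91 ± 2.67 CPM in DIZE (SD, n = 4 each), a 1.98-fold difference.

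The log2 fold change of Alox12 was 0.99 ± 0.27 SE (95% interval 0.39 to 1.58) and did not pass after adjustment (edgeR adjusted p = 0.121, 440th smallest p of 13648). By DESeq2 it did pass (adjusted p = 0.036), as it did with no filter on low counts (0.0407, where 1.37% of genes passed), within a range of 0.036 to 0.586 over all 17 alternatives. The value was 0.72 in libraries with db in the title and 1.18 in those without, where it passed (adjusted p = 0.0493) along with 9.57% of genes. The difference between the title forms was 0.46 ± 0.52 (unadjusted p = 0.399). Without DIZE 3 the log2 value was 0.70. Scaled to library totals alone, DIZE 1 at 4.14 CPM fell just inside the vehicle range, whose top was 4.16 CPM. The counts behind Alox12 were 28 to 33 reads per vehicle library and 35 to 105 per DIZE library, so counting error is large, with an exact 95% Poisson interval of 2.98 to 5.94 CPM in DIZE 1.

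Platelet markers were not highest where Alox12 was highest. The 13 megakaryocyte and platelet markers summed to 19.4 to 36.0 CPM in vehicle and 21.5 to 27.6 CPM in DIZE, and DIZE 3 stood at 23.7 CPM. Gp1bb and Gp6 had no read in any library. Of the 5 tested, 2 lay higher and 3 lower in DIZE. Markers of red cells lay the other way from Alox12, since 8 erythroid genes summed to 102 to 211 CPM for vehicle and 9.34 to 78.9 CPM for DIZE. All 5 tested erythroid genes lay lower in DIZE, with a median log2 fold change of -1.79. By edgeR all 5 had an unadjusted p under 0.05, beside 10.3% of all tested genes lower at that mark, and none passed after adjustment. The part of blood cells in the Alox12 values was not tested. None of the 3986 distinct stretches of 100 bases in its annotated transcripts occurs in a transcript of another gene.

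The 250 bases before the RefSeq start of Alox12 are shown because it is the member with the largest difference (GRCm38.p6, chr11:70255371-70255620, minus strand, written 5′ to 3′, with capitals marking the GC box motif).
Alox12 upstream: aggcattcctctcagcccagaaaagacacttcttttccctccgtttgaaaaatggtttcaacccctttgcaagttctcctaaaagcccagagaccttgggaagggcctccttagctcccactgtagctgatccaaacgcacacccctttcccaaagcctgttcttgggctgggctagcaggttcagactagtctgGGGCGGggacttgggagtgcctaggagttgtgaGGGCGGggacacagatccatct
The GC box GGGCGG, searched on both strands over 300 bases from 250 before to 50 after the start, occurred at 55 to 50 and 22 to 17 bases before the start and at 42 to 47 after it. The same letters occurred in 35.7% of the 32851 RefSeq windows of that length. The TATA box TATAAA, the E-box CACGTG, the cyclic AMP response element core ACGTCA and CCAAT were not among the letters of this window. RefSeq entries were matched for 6 of the 10 genes, namely Alox12, Alox5, Ptgs1, Ptgs2, Ptgds and Ptges.

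Alox15 (ENSMUSG00000018924), also on chromosome 11 from 70344152 to 70352031, encodes the 12/15-lipoxygenase of mouse macrophages. It gave 4, 2, 3 and 2 reads in vehicle 1 to 4 and 1, 1, 7 and 3 reads in DIZE 1 to 4. At this depth no difference was detectable, the means being 0.32 ± 0.11 CPM for vehicle and 0.31 ± 0.27 CPM for DIZE. DIZE 3 was again the highest library, at 0.71 CPM with an interval of 0.28 to 1.46 CPM.

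Alox5 (ENSMUSG00000025701, chromosome 6 from 116410077 to 116461178) encodes 5-lipoxygenase, the first enzyme of leukotriene synthesis. It was the steadiest of the 10 genes, with its highest library only 1.30 times its lowest. Its level was 8.11, 7.82, 10.2 and 8.14 CPM in vehicle 1 to 4 and 8.42, 9.34, 9.30 and 9.95 CPM in DIZE 1 to 4. The DIZE range lay inside the vehicle range, and vehicle 3 was the highest library of all. DIZE differed from vehicle by a log2 fold change of 0.12 ± 0.15 SE (95% interval -0.22 to 0.45, edgeR adjusted p = 0.708). The value was 0.21 without vehicle 3, and -0.024 once trends on GC content and exon length had been taken out of each library.

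Alox5ap (ENSMUSG00000060063, chromosome 5 from 149264767 to 149288153) encodes the membrane protein that presents arachidonic acid to 5-lipoxygenase. It stood at 3.49, 1.28, 2.55 and 2.75 CPM in vehicle 1 to 4 and at 2.44, 2.11, 1.41 and 1.56 CPM in DIZE 1 to 4. The groups overlapped, with vehicle 2 the lowest library and vehicle 1 the highest. Its log2 fold change was -0.45 ± 0.32 SE (95% interval -1.16 to 0.26, adjusted p = 0.464), and -0.25 without vehicle 1. It was -0.09 with db in the title and -0.83 without.

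Most macrophage markers and the tested mast cell markers lay lower in DIZE, as Alox5ap did, but the libraries did not all follow Alox5ap. The 12 macrophage markers, all detected, summed to 486 to 754 CPM in vehicle, highest in vehicle 1 and lowest in vehicle 2, and to 434 to 512 CPM in DIZE. Of the 12, 10 lay lower in DIZE, 4 at an unadjusted p under 0.05 by edgeR, and none passed. Over all tested genes 48.2% lay higher in DIZE, and 10.3% lay lower at that unadjusted mark. Mast cell markers, 8 genes, summed to 26.9 to 64.6 CPM in vehicle, again highest in vehicle 1, and to 14.999 to 38.0 CPM in DIZE. Within DIZE their sum ran the other way from Alox5ap, at 18.9 and 14.999 CPM in DIZE 1 and 2. In DIZE 3 and 4, where Alox5ap was lower, it was 38.0 and 36.6 CPM. All 6 tested mast cell markers lay lower in DIZE, 1 at an unadjusted p under 0.05. Neutrophil markers summed to 3.46 to 8.72 CPM over 8 genes in vehicle and 4.49 to 10.6 CPM in DIZE, and Ly6g had no read. Their part in the Alox5ap values was not tested, and in bulk tissue fewer cells of a type and less RNA per cell cannot be told apart. Within a library the ratio of Alox5 to Alox5ap per length was 0.80 to 2.11 in vehicle and 1.19 to 2.27 in DIZE.

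**Figure D3:**
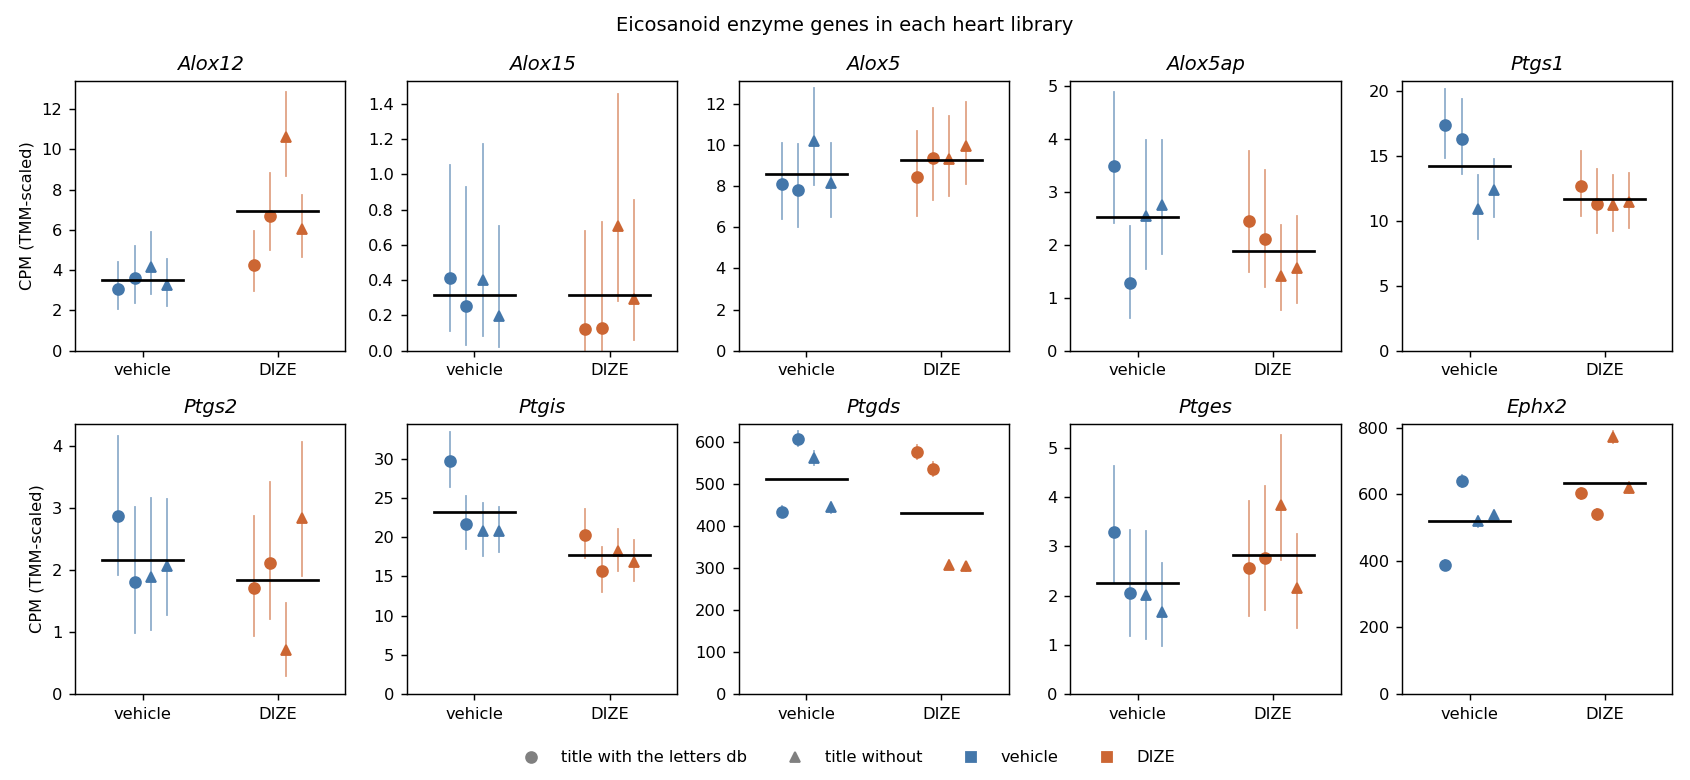
Each panel gives 1 gene's level per library in CPM (scaled by the trimmed mean of M-values), with exact 95% Poisson intervals for counting error and black bars for group means. Vehicle and DIZE are coloured, and the shape gives the title form. Alox12 and Ptgis are the panels in which the 2 groups do not overlap.

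Both cyclooxygenase genes overlapped between the groups. Ptgs1 (ENSMUSG00000047250, chromosome 2 from 36230426 to 36252272) encodes cyclooxygenase-1, the constitutive form found in endothelium and platelets. It stood at 17.3, 16.3, 10.9 and 12.4 CPM in vehicle 1 to 4 and at 12.7, 11.3, 11.2 and 11.4 CPM in DIZE 1 to 4. Vehicle 1 and vehicle 2 were high, and the other 6 libraries lay close together. On the log2 scale the difference was -0.29 ± 0.17 SE (95% interval -0.66 to 0.08, edgeR adjusted p = 0.363), at -0.18 without vehicle 1. It was -0.48 in libraries with db in the title and -0.04 in those without. Ptgs1 shares 51 of its 3794 stretches of 100 bases with transcripts of Gm43621.

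Ptgs2 (ENSMUSG00000032487, chromosome 1 from 150100031 to 150108227) encodes cyclooxygenase-2, the inducible form. It stood at 2.87, 1.80, 1.88 and 2.06 CPM in vehicle 1 to 4 and at 1.71, 2.11, 0.71 and 2.83 CPM in DIZE 1 to 4. The spread was wider in DIZE, where DIZE 3 was the lowest and DIZE 4 the highest, on 7 and 29 reads. Its log2 fold change was -0.24 ± 0.37 SE (95% interval -1.05 to 0.57, adjusted p = 0.755). The value was -0.54 without DIZE 4 and -0.06 without vehicle 1, and its sign turned without DIZE 3, to 0.045.

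Immediate early genes are induced within minutes of a stimulus, as Ptgs2 is. Their summed level, like Ptgs2 within the DIZE group, was lowest in DIZE 3 and highest in DIZE 4. The 16 genes of that list summed to 281 CPM in DIZE 3 and 1050 CPM in DIZE 4, against 343 to 546 CPM in the vehicle libraries and 404 and 433 CPM in DIZE 1 and 2. Vehicle 1, the highest library of all for Ptgs2, had the lowest sum of the vehicle group. Fos, for example, had 2.93 CPM in DIZE 3 and 38.5 CPM in DIZE 4. Not every gene followed the sum within DIZE. Egr1, Junb and Ier2 were not lowest in DIZE 3, and Egr3, Ier3 and Nr4a3 were not highest in DIZE 4. No gene of the list passed, and none had an unadjusted p under 0.05. Their part in the Ptgs2 values was not tested.

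The starts of both cyclooxygenase genes are shown because they set a constitutive beside an inducible form of 1 enzyme. The upstream stretches are 250 bases, written 5′ to 3′ on the plus strand of GRCm38.p6, at chr2:36230176-36230425 for Ptgs1 and chr1:150099781-150100030 for Ptgs2. A further 30 bases of Ptgs2, chr1:150100035-150100064, run from base 5 to base 34 after the RefSeq start. Capitals mark the motifs found.
Ptgs1 upstream: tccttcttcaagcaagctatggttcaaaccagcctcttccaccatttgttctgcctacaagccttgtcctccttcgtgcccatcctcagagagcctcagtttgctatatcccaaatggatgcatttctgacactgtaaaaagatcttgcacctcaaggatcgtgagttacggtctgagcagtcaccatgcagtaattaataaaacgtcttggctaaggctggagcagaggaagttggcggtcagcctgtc
Ptgs2 upstream: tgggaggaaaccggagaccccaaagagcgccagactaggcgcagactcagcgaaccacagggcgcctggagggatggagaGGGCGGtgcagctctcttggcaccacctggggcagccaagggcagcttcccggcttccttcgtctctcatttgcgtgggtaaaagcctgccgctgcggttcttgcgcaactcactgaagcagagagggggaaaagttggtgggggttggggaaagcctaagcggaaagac
Ptgs2 motif site: tcaccactACGTCACGTGgagtccgcttta
In Ptgs2 the cyclic AMP response element core ACGTCA lay at bases 13 to 18 after the start and the E-box CACGTG at bases 17 to 22, so the 2 motifs share 2 letters. ACGTCA occurred in 7.51% and CACGTG in 7.15% of all RefSeq windows. Ptgs2 also held GGGCGG at 170 to 165 bases before its start. The 250 bases had 61.6% GC and 13 CpG in Ptgs2 and 48.0% GC and 5 CpG in Ptgs1, which held none of the 5 motifs in its window of 300 bases.

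Within a library, Ptgs1 exceeded Ptgs2 per length by 6.82 to 10.7 times in vehicle and by 4.76 to 18.7 times in DIZE. Both extremes were DIZE libraries, DIZE 4 at the low end and DIZE 3 at the high end.

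Of the terminal prostaglandin synthases, Ptgis had groups that did not overlap, and Ptgds and Ptges overlapped. Ptgis (ENSMUSG00000017969, chromosome 2 from 167191805 to 167240604) encodes prostacyclin synthase, whose product relaxes vessels and restrains platelets. It stood at 29.8, 21.7, 20.8 and 20.8 CPM in vehicle 1 to 4 and at 20.3, 15.7, 18.2 and 16.9 CPM in DIZE 1 to 4. Vehicle 1 stood well above the rest, and DIZE 1 lay just under the lowest vehicle library. The means were 23.3 ± 4.36 CPM in vehicle and 17.7 ± 1.97 CPM in DIZE, 1.31-fold lower in DIZE.

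The log2 fold change of Ptgis was -0.39 ± 0.15 SE (95% interval -0.73 to -0.06, edgeR adjusted p = 0.201). It was -0.51 with db in the title and -0.25 without, and also -0.25 without vehicle 1. Taking out the trends on GC content and exon length gave -0.58 (adjusted p = 0.124, within a range of 0.124 to 0.585 over the alternatives). Scaling to library totals alone still left the groups apart.

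Vehicle 1 was also highest for fibroblast markers, whose 12 genes summed to 4714 CPM there, 3391 to 3589 CPM in vehicle 2 to 4 and 2824 to 4451 CPM in DIZE. Of the 12, 10 lay lower in DIZE, 4 at an unadjusted p under 0.05 by edgeR, and none passed. Beside this, 48.2% of all tested genes lay higher in DIZE, and 10.3% lay lower at that unadjusted mark. The 10 mesothelial and epicardial markers summed to 48.8 to 86.6 CPM in vehicle, highest in vehicle 1, and to 32.0 to 94.6 CPM in DIZE, highest in DIZE 4. The 10 endothelial markers summed to 1367 to 1873 CPM in vehicle and 1284 to 1578 CPM in DIZE. In each of these lists 8 of the 10 markers lay lower in DIZE, 1 at an unadjusted p under 0.05 and none past the adjusted threshold. The part of these cells in the Ptgis values was not tested. Ptgis shares 59 of its 2562 stretches of 100 bases with an annotated transcript on the other strand, 1110018N20Rik, which had a mean of 1.57 CPM.

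Ptgds (ENSMUSG00000015090, chromosome 2 from 25466709 to 25470046) stood at 434, 608, 562 and 444 CPM in vehicle 1 to 4 and at 576, 534, 308 and 304 CPM in DIZE 1 to 4. DIZE 1 and 2 lay inside the vehicle range, while DIZE 3 and 4 lay below every vehicle library and close to each other. With 3043 or more reads in each library, counting error was small beside this gap. Over all 8 libraries the log2 fold change was -0.25 ± 0.22 SE (95% interval -0.74 to 0.24, edgeR adjusted p = 0.556).

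The Ptgds value differed in sign between the forms of title, a difference that did not pass a test. It was 0.10 with db in the title and -0.72 ± 0.12 SE without, where it passed (edgeR adjusted p = 0.0112, within a range of 0.0112 to 0.897 over the alternatives) along with 9.57% of all genes tested there. The difference between the title forms was -0.81 ± 0.27 SE, with an unadjusted p of 0.0149 and an adjusted p of 0.528. No gene passed that test by edgeR, and 1206 of 13648 had an unadjusted p under 0.05. Leaving out DIZE 4 gave -0.11, DIZE 3 -0.12, vehicle 2 -0.16 and DIZE 1 -0.42. What the 2 forms of title stand for is not in the labels, and its part in the Ptgds values was not tested beyond this.

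Ptges (ENSMUSG00000050737, chromosome 2 from 30889471 to 30929863) encodes the inducible microsomal prostaglandin E synthase, which works with cyclooxygenase-2. It stood at 3.28, 2.05, 2.01 and 1.67 CPM in vehicle 1 to 4 and at 2.56, 2.76, 3.84 and 2.15 CPM in DIZE 1 to 4. The groups overlapped through vehicle 1. Its log2 fold change was 0.32 ± 0.29 SE (95% interval -0.31 to 0.96, edgeR adjusted p = 0.563), at 0.57 without vehicle 1, 0.19 without vehicle 4 and 0.13 without DIZE 3. It was -0.011 with db in the title and 0.71 without.

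Ratios within a library do not depend on how libraries are scaled. Ptgis exceeded Ptges per length by 13.9, 16.2, 15.8 and 19.1 times in vehicle 1 to 4 and by 12.1, 8.68, 7.25 and 12.04 times in DIZE 1 to 4. Every DIZE library had the smaller excess of the prostacyclin over the prostaglandin E synthase transcript. This pair is 1 of 6 chosen after levels had been seen, so the gap is given as a description with no test. In 3 of the 6 pairs the groups did not overlap, and each of these holds a gene whose own groups did not overlap (Ptgis, Alox12 or Ephx1). The share over other gene pairs was not computed, so nothing is read from this count. Among the 3 was Alox12 over Alox5, at 0.38 to 0.46 in vehicle and 0.51 to 1.15 in DIZE.

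Ephx2 (ENSMUSG00000022040, chromosome 14 from 66084374 to 66124500) encodes the enzyme that turns epoxides of arachidonic acid into less active diols. It stood at 389, 640, 518 and 537 CPM in vehicle 1 to 4 and at 603, 539, 772 and 620 CPM in DIZE 1 to 4. Vehicle 1 was the lowest and DIZE 3 the highest, and the groups overlapped only through vehicle 2. On the log2 scale DIZE differed by 0.28 ± 0.16 SE (95% interval -0.07 to 0.63, edgeR adjusted p = 0.351), and by 0.17 without DIZE 3.

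Vehicle 1 and vehicle 2, the libraries that stood apart, were the lowest and the highest vehicle libraries for Ephx2. Vehicle 1, which had the lowest cardiomyocyte markers, had 389 CPM of Ephx2, and without it the log2 value was 0.17. All 10 cardiomyocyte markers lay higher in DIZE, 1 of them at an unadjusted p under 0.05, beside 48.2% of all tested genes higher. Their sum overlapped between groups outside vehicle 1, at 50507 to 61206 CPM in vehicle 2 to 4 and 55697 to 63415 CPM in DIZE. Vehicle 2, the library with liver-type P450 reads, had 640 CPM, and without it the value was 0.40 (adjusted p = 0.177, within a range of 0.062 to 0.859 over the alternatives). Ephx2 is also abundant in liver. The part of either feature in the Ephx2 values was not tested.

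Ephx1, the microsomal epoxide hydrolase gene, lay in the other direction, at 81.2, 81.6, 67.0 and 69.4 CPM in vehicle 1 to 4 and 61.0, 46.7, 57.0 and 58.9 CPM in DIZE 1 to 4. No DIZE library reached the vehicle range (log2 -0.42 ± 0.12 SE, edgeR adjusted p = 0.128). DESeq2 called it (adjusted p = 0.0462, within a range of 0.0462 to 0.583 over the alternatives). Without vehicle 2, the library with liver-type P450 reads and the highest Ephx1, the log2 value was -0.38 (edgeR adjusted p = 0.140). The part of that feature in the Ephx1 values was not tested. Within a library, Ephx2 exceeded Ephx1 per length by 3.76, 6.16, 6.07 and 6.07 times in vehicle 1 to 4 and by 7.75, 9.06, 10.6 and 8.27 times in DIZE 1 to 4. Every DIZE library had the larger ratio, again given with no test because the pair was chosen after levels had been seen.

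**Figure D4:**
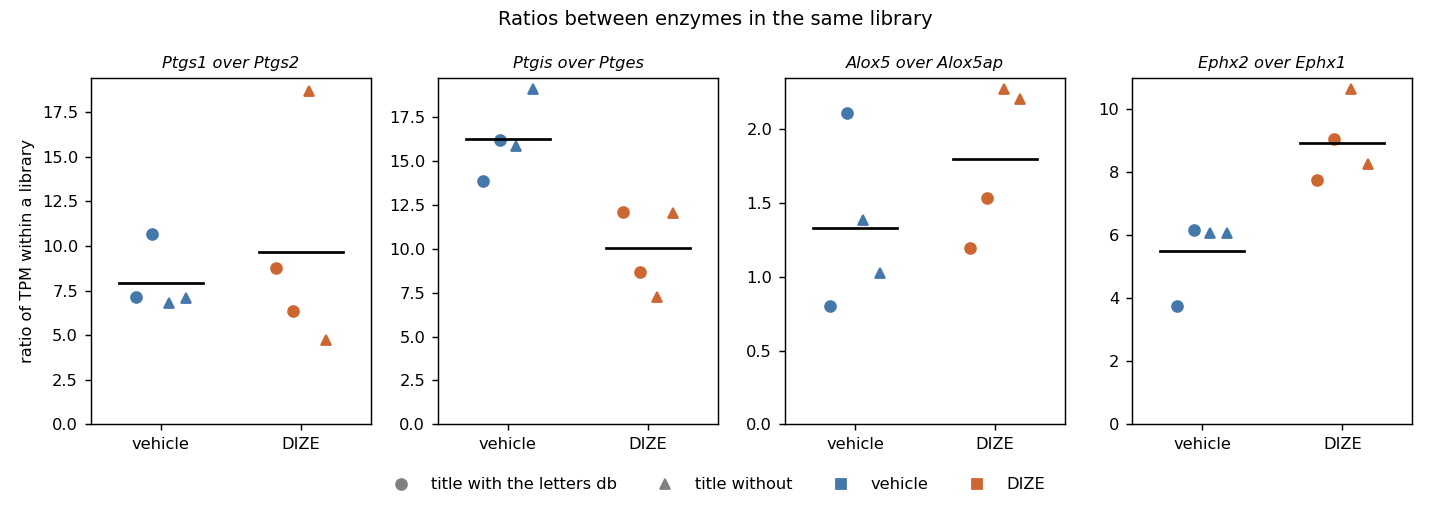
Each point is the ratio of 2 genes' levels per length (TPM) in 1 library, with black bars for group means, colour for the group and shape for the title form. Ptgis over Ptges is 13.9 to 19.1 in vehicle and 7.25 to 12.1 in DIZE, Ephx2 over Ephx1 is 3.76 to 6.16 and 7.75 to 10.6, and the other 2 ratios drawn overlap.

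The rest of the pathway was read from 6 lists with 103 genes in the table, of which 41 had enough reads to be tested. None of the 41 passed by edgeR, 9 had an unadjusted p under 0.05 (4 higher, 5 lower), beside 19.4% of all tested genes. DESeq2 called 1 of them, Ephx1, beside its 4.45% over all genes. Their median log2 fold change was -0.02, beside -0.01 over all tested genes. Receptors had the lowest median of the 6 lists, at -0.49 with 5 of 7 lower, and P450 enzymes with other epoxide hydrolases had the highest, at 0.27 with 5 of 7 higher.

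Of 10 tested phospholipase A2 genes, which free arachidonic acid, 6 lay higher and 4 lower. Pla2g6, the calcium-independent form, averaged 13.3 CPM for vehicle and 18.8 CPM for DIZE with no overlap (log2 0.50 ± 0.21 SE, edgeR adjusted p = 0.223), and 0.30 without vehicle 1. Pla2g4a, the cytosolic form that feeds eicosanoid synthesis, had 14.6 CPM in vehicle 1 and 5.79 to 8.31 CPM elsewhere (log2 -0.54, and -0.21 without vehicle 1). Pla2g5, a secreted form, had log2 0.25 ± 0.14 SE.

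Of the 4 tested genes of leukotriene processing and related enzymes, Dpep1, which cleaves leukotriene D, had log2 0.28 ± 0.15 SE, Mgst3 had -0.09 ± 0.11 and Ggt5 0.11 ± 0.15. Dpep1 had 0.16 without DIZE 1, and Mgst3 had -0.03 without vehicle 2, -0.05 without DIZE 4 and -0.14 without vehicle 4. Ggt5 had -0.017 without DIZE 1. Of the other prostanoid synthases, 6 of 7 lay lower, with -0.41 ± 0.22 SE for Tbxas1 (thromboxane synthase), -0.52 ± 0.35 for Hpgds (hematopoietic prostaglandin D synthase, -0.25 without vehicle 1) and -0.17 ± 0.14 for Fam213b (-0.06 without DIZE 4).

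Of 6 tested genes of prostanoid transport and breakdown, 5 lay lower. Abcc4, a prostaglandin exporter, averaged 17.3 CPM for vehicle and 13.4 CPM for DIZE (log2 -0.37 ± 0.14 SE, edgeR adjusted p = 0.185). Ptgr1, a prostaglandin reductase gene, averaged 3.91 and 2.46 CPM with no overlap (log2 -0.68 ± 0.28 SE, adjusted p = 0.219), and -0.38 without vehicle 1. Zadh2, another reductase gene, had log2 0.18 ± 0.10 SE.

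Among the P450 genes and other epoxide hydrolases, Cyp4f16 (log2 0.38 ± 0.15 SE, edgeR adjusted p = 0.196) and Ephx3 (0.57 ± 0.24, adjusted p = 0.231) lay higher with no overlap. Among receptors, Ptgfr, for prostaglandin F, had 17.3 CPM in vehicle 1, 3.49 to 8.04 CPM in vehicle 2 to 4 and 2.43 to 5.37 CPM in DIZE. Its log2 value was -1.33 ± 0.46 SE (edgeR adjusted p = 0.166), and -0.73 without vehicle 1. Gpr17 had log2 -0.63 ± 0.24 SE, and the cysteinyl leukotriene receptor gene Cysltr1 had -0.49 ± 0.30, or -0.20 without vehicle 1.

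**Figure D5:**
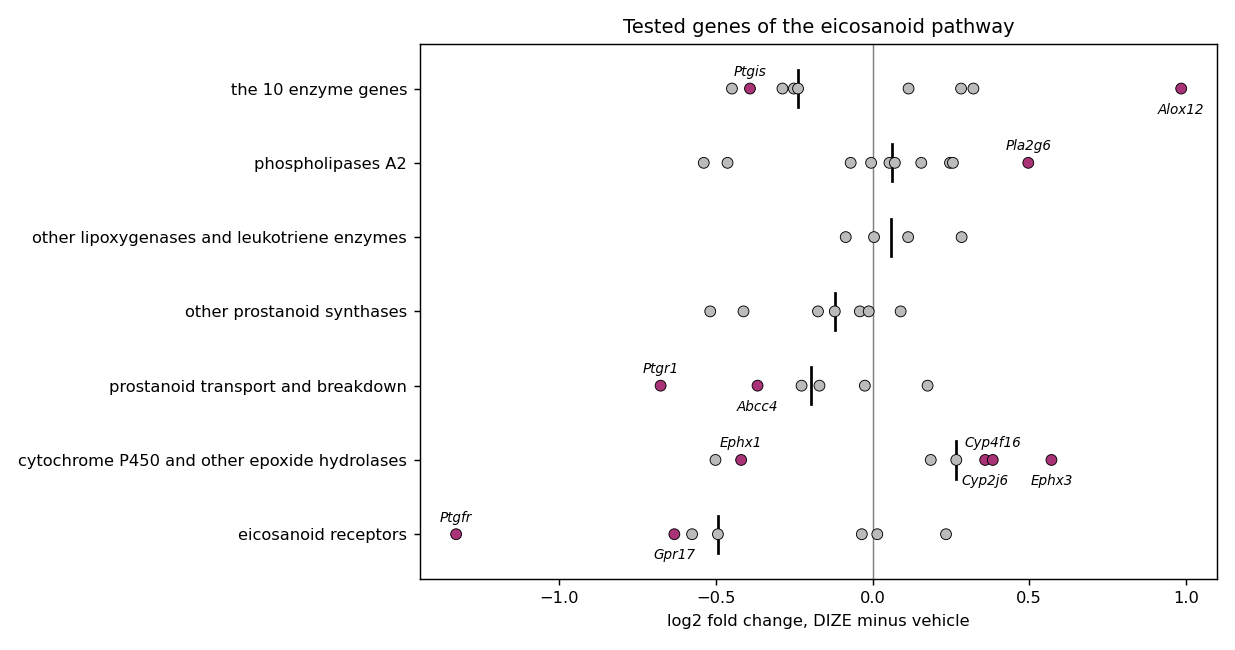
Each point is a tested gene's log2 fold change of DIZE minus vehicle, by list, with black bars for list medians. Named and coloured genes had an unadjusted p under 0.05, none of the points passed after adjustment, and Alox12 lies farthest to the right.

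The genes whose levels tracked a member most closely were sought over the 8 libraries after removing each group's mean. This was done for the 6 members averaging at least 5 CPM, and with 13648 genes to choose from and 8 libraries, high coefficients are given as a description only. Ptgis was followed most closely by Unc50 (Pearson r = 0.991), Crip1 (0.979) and Ptgr1 (0.968), the last a gene of prostaglandin breakdown. Vehicle 1 was the highest library for both Ptgis and Ptgr1. Ptgds was followed by Dhx32 (0.996), Rundc3a (0.971) and Tmem43 (0.967). Ephx2 was followed by Pgp (0.981), Cited4 (0.981) and Chchd10 (0.98), a mitochondrial protein gene. Alox12 was followed by Grcc10 (0.98), Rcn2 (0.942) and Dact1 (0.925). Alox5 was followed by Efr3b (0.985), St6gal1 (0.97) and Mcm2 (0.964), and Ptgs1 by Fbxo8 (0.986), Ang (0.973) and Psenen (0.968).

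Between members, the same measure was highest for Ptgs1 with Ptgis (r = 0.703) and lowest for Alox5ap with Ephx2 (r = -0.838). Alox12 went with Ephx2 at 0.504 and against Ptgs2 at -0.682. DIZE 3, which had the highest Alox12, Ephx2 and Ptges and the lowest Ptgs2 of all 8 libraries, is shared by the Alox12 values. Vehicle 1, which had the highest Ptgs1, Ptgis and Alox5ap and the lowest Ephx2, is shared by the highest and lowest values. Other libraries also enter the lowest value. Vehicle 2 had the lowest Alox5ap of all (1.28 CPM) and the highest Ephx2 of the vehicle group (640 CPM). DIZE 3 had the lowest Alox5ap of the DIZE group (1.41 CPM) beside the highest Ephx2 (772 CPM).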

How the data were processed

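RNA from mouse heart, in 8 libraries, was selected with oligo(dT) beads, made into stranded libraries and sequenced as read pairs, per the labels' protocols. The deposited table holds raw counts per Ensembl gene, which the authors did not normalize. STAR 2.7.3, HTSeq 0.6.1p1, R 4.1, edgeR and mm10 are listed in the submitters' processing notes. How strand was used in counting, and the annotation, are not stated there.

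Symbols, positions and exon lengths came from GENCODE M21 (GRCm38), matching 55227 of 55487 genes. DIZE and vehicle were compared with edgeR 4.0.16 in R 4.3.3 (quasi-likelihood, robust, two-sided, trimmed mean of M-values, filterByExpr with minimum count 10 and minimum total 15, no covariate). P-values were Benjamini-Hochberg adjusted over all 13648 genes tested at 0.05, and the procedure was tested on simulated data. DESeq2 1.42.0 was an alternative. The most alike pair of libraries, DIZE 3 and DIZE 4, differed by a chi-square of 5.54 per degree of freedom. None was therefore counted as a repeat run of the same library. This measure cannot tell whether libraries came from separate animals. Intervals on single libraries cover counting error only.

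Members and lists were chosen with earlier results of these data known. Named besides members were the 3 genes of each list with the smallest unadjusted p, and the 3 genes most like each member averaging at least 5 CPM. Myh6 and the immediate early genes named were chosen after their values were seen, Myh6 and Fos to illustrate their lists. The interaction of treatment with title form was added after the data were examined. There were 0 columns of other samples.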

Additional observations from a re-analysis of the deposited data

Results flagged for a closer look

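In 3 of 18 groups of 4 libraries, 1 library stood apart from the other 3 by more than Dixon's 95% limit, which chance passes in about 1 of 20 groups. For Alox5 this was vehicle 3, with 10.19 CPM where vehicle 1, 2 and 4 had 7.82 to 8.14 CPM. For Ptgs1 it was DIZE 1, with 12.70 CPM where the other 3 had 11.2 to 11.4 CPM, a small gap within a tight group. For Ptgis it was vehicle 1, with 29.76 CPM where the other 3 had 20.8 to 21.7 CPM, and without it the Ptgis log2 value was -0.25 in place of -0.39.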

How the results depend on the processing

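Of 459 values of the 27 tested genes named by rule (9 members and 18 others) under 17 alternatives each, 446 kept their sign and their side of the threshold, 5 newly passed and 8 turned sign. The count of members past the threshold, 0 in the main test, was 1 by DESeq2 and 1 with no filter on low counts (Alox12 each time), 2 in the libraries without db in the title alone (Alox12 and Ptgds), and 0 with each library left out. The count of other pathway genes, also 0, was 1 by DESeq2 (Ephx1) and 1 in the libraries without db (Cmklr1). Over all genes the count was 5, and 0 with library totals, 386 with no filter, 606 by DESeq2, 9 with title form as a block, 0 with db titles alone and 1349 without db. With the number in the titles as a replicate block it was 0. In that setting vehicle 4 (number 6) and DIZE 3 (number 3) share their number with no other library, so they add nothing to the contrast. Leaving out 1 library gave 0 to 240 (240 without vehicle 2). The cause was not tested.

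Signs turned for Alox5 with GC and length trends taken out (-0.024), for Ptgs2 under the replicate block (0.031), and for Ptgds (0.096) and Ptges (-0.011) with db titles alone. Mgst3 turned without db (0.032) and with GC and length trends taken out (0.028). Leaving out 1 library gave -0.54 (without DIZE 4) to 0.045 (without DIZE 3) for Ptgs2 and -0.017 (without DIZE 1) to 0.19 (without DIZE 3) for Ggt5. Libraries that share a title number did not deviate together (r from -0.14 to 0.0204). Ptgs2, Alox5ap, Ptges and Alox12 rest on few reads, which limits their precision.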
